A study of Mus musculus with 96 samples.

Results

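The cells described here are single epithelial cells of the neonatal mouse uterus, sorted by which of the posterior Hoxa genes they carried. Of 96 cells in the series, 88 had a cycle threshold (Ct, the amplification cycle at which the signal crosses its threshold, lower where there was more template) below 18 for Gapdh, and these 88 were kept. They were placed in 4 classes by detection of Hoxa13, Hoxa11 and Hoxa10 at a Ct below 28. Hoxa13 without Hoxa10 and Hoxa11 was found in 23 cells (Hoxa13-only), and Hoxa10 or Hoxa11 without Hoxa13 in 20 (Hoxa10/11-only). Another 12 cells carried Hoxa13 with Hoxa10 or Hoxa11 (both), and 33 had none of the 3 at a Ct below 28 (neither). The classes were chosen by the measured Hox values, so those values are given as a description.

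The uteri of 7-day-old mice were the source of all cells. They were released with type I collagenase, sorted singly as CD326-positive (CD326 is EpCAM, an epithelial adhesion molecule), and measured with 96 assays by quantitative PCR on a microfluidic chip. Strain, genotype, number of animals and the segment of the uterus sampled are not stated in the labels or files, and the labels give 1 group with no treatment. The cells of a class are therefore not replicates, no test between classes was made, and the exact (Clopper-Pearson) 95% intervals given with shares cover counting error only.

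Hox genes encode homeodomain transcription factors that give position along the body axis. The genes at the posterior end of the Hoxa cluster are used in overlapping order along the Müllerian duct, with Hoxa10 and Hoxa11 known from the uterus, in its stroma as well as its epithelium, and Hoxa13 from the cervix and upper vagina. In the RefSeq table of mouse genes Hoxa10, Hoxa11 and Hoxa13 are consecutive members of the cluster on chromosome 6.

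Hoxa13 was the gene found most often and was recorded well before the detection limit. It was detected in 35 of the 88 kept cells (39.8%, interval 29.5 to 50.8%), Hoxa11 in 28 (31.8%, interval 22.3 to 42.6%) and Hoxa10 in 11 (12.5%, interval 6.41 to 21.3%). In the 23 Hoxa13-only cells the Hoxa13 Ct ran from 16.8 to 23.4 with a median of 20.3, so that all 23 lay below 24. Relative to Gapdh in the same cell it came 5.45 to 10.4 cycles later, with a median of 7.32 cycles. In the 12 cells with both, the Hoxa13 Ct ran from 17.8 to 26.2 with a median of 20.4, which overlaps the Hoxa13-only cells over most of its range.

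Hoxa11 defined most of the Hoxa10/11-only class and often lay close to the limit. Of its 20 cells, 13 carried Hoxa11 alone, 2 Hoxa10 alone and 5 both genes. The Hoxa11 Ct in the 18 cells that detected it ran from 16.4 to 27.9 with a median of 24.9, and 7 of the 18 lay between 26 and 28. Their Hoxa11 came 3.39 to 15.7 cycles after Gapdh, with a median of 11.1. Hoxa10 was recorded more evenly, at a Ct of 18.8 to 23.5 with a median of 21.0 in the 7 Hoxa10/11-only cells that carried it. The highest Hoxa11 values inside the limit were 27.6, 27.9 and 27.9, and the lowest outside were 28.9 and 29.0. For Hoxa13 the highest inside were 24.3, 26.1 and 26.2, and the lowest outside were 28.0, 28.1 and 28.6. No Hoxa10 value was recorded at 28 or above, the highest being 25.0. Hoxa13 was recorded at 28 or above in 2 Hoxa10/11-only cells and 2 with neither. Hoxa11 was so recorded in 1 Hoxa13-only cell and 1 with neither.

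**Figure D1:**
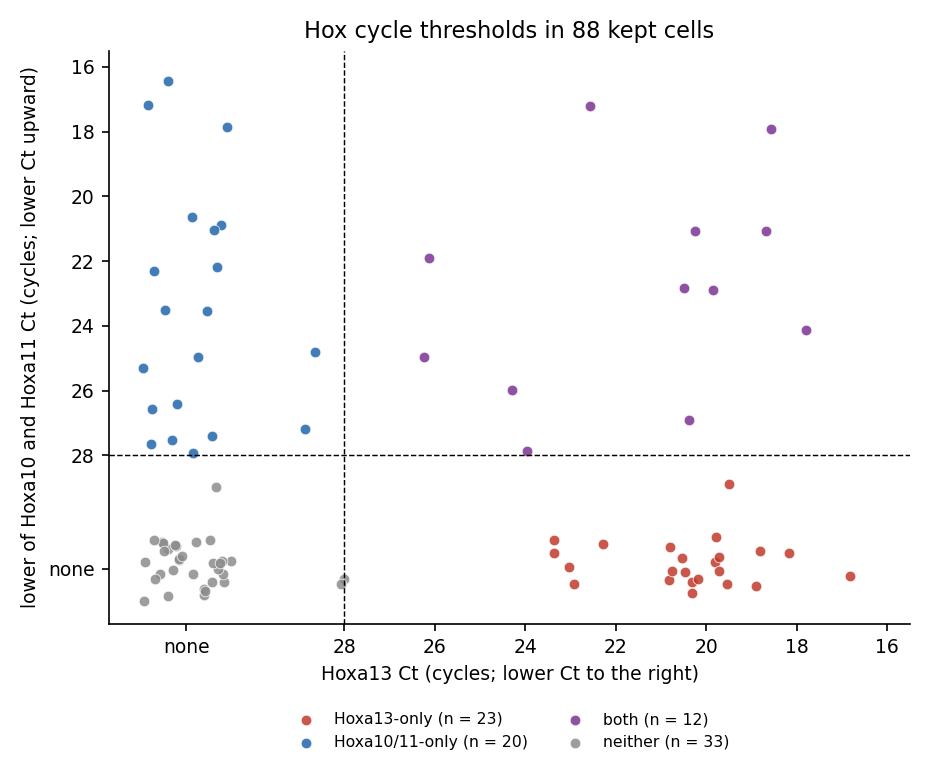
Hoxa13 Ct (horizontal, cycles, lower values to the right) against the lower of the Hoxa10 and Hoxa11 Ct (vertical, cycles, lower values upward) in the 88 kept cells, coloured by class. Cells with no Ct sit in the band marked none, spread at random for visibility, and the dashed lines mark the limit of 28. The 23 Hoxa13-only cells all lie at a Hoxa13 Ct of 23.4 or lower, while the 20 Hoxa10/11-only cells spread up to 27.9.

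Hoxa13 was found about as often with Hoxa10 or Hoxa11 as without them. It was detected in 12 of the 32 cells that carried Hoxa10 or Hoxa11 (37.5%, interval 21.1 to 56.3%) and in 23 of the 56 that did not (41.1%, interval 28.1 to 55.0%). Hoxa10 was detected in 7 of 28 cells with Hoxa11 (25.0%, interval 10.7 to 44.9%) and in 4 of 60 without it (6.67%, interval 1.85 to 16.2%). In the 12 cells with both, Hoxa13 had the lower Ct in 8.

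The 2 compared classes had similar amounts of measured RNA. The Gapdh Ct ran from 10.5 to 15.3 with a median of 13.0 in the Hoxa13-only cells and from 9.43 to 16.2 with a median of 13.2 in the Hoxa10/11-only cells. Of the 93 assays other than the Hox genes, the Hoxa13-only cells detected 38 to 71 with a median of 54, and the Hoxa10/11-only cells 21 to 77 with a median of 53. The cells with both detected a median of 56 and those with neither 53. Actin was detected in every cell of both compared classes, at a median of 0.94 cycles after Gapdh in the Hoxa13-only cells and 1.17 in the Hoxa10/11-only cells. Hprt, a purine salvage gene, was detected in 16 of 23 and 12 of 20 cells. The 8 cells left out by the Gapdh limit held 1 with Hoxa13 and 1 with Hoxa11.

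**Figure D2:**
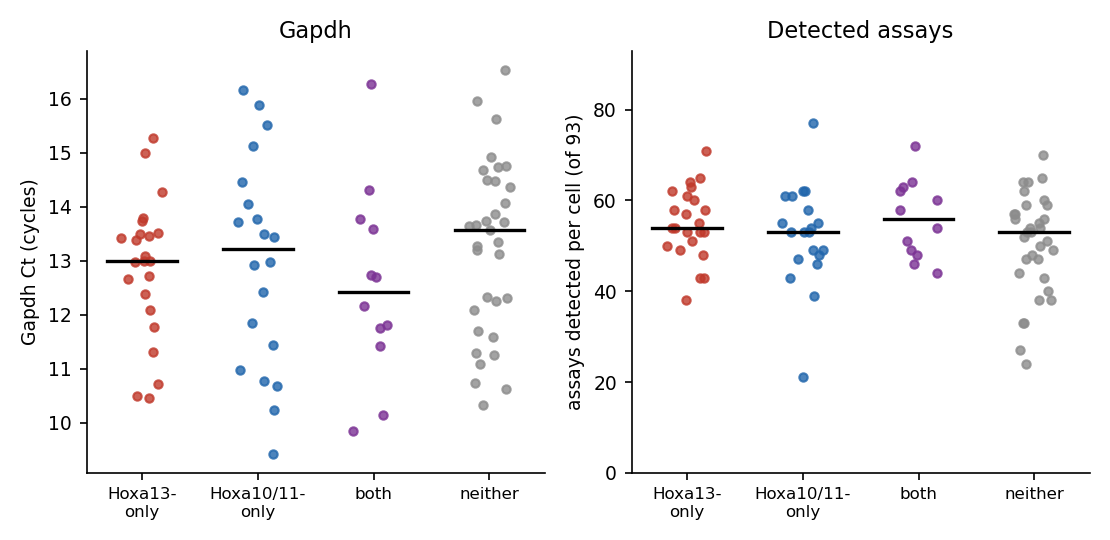
Gapdh Ct (left, cycles) and number of detected assays of the 93 other than the Hox genes (right) for every kept cell by class, with the median as a bar. The range of the Hoxa13-only cells lies within the wider range of the Hoxa10/11-only cells in both measures, with medians of 54 and 53 detected assays.

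Integrin alpha 6, h2b and Cd55 were found in more of the Hoxa13-only cells, and Tbx3 and Thy1 in more of the Hoxa10/11-only cells, but most of the panel differed little. Over the 92 assays other than Gapdh and the Hox genes, the median difference in detection share, Hoxa13-only minus Hoxa10/11-only, was 0.98 percentage points, and 55 assays differed by under 10 points. Of the 92, 8 (8.7%) were higher by at least 20 points in the Hoxa13-only cells and 2 (2.17%) were lower by as much. The exact intervals of the classes overlapped for all 92 assays, including these 10. Overlap of 2 separate intervals cannot decide whether a difference exceeds counting error, and the differences were not tested.

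Itga6, the integrin alpha 6 subunit that binds laminin at the basal cell surface, had the largest difference. It was detected in 20 of 23 Hoxa13-only cells (87.0%, interval 66.4 to 97.2%) and in 10 of 20 Hoxa10/11-only cells (50.0%, interval 27.2 to 72.8%), a difference of 37.0 points. The Hoxa10/11-only class was the one that stood lower, since Itga6 was found in 11 of the 12 cells with both (91.7%) and in 26 of the 33 with neither (78.8%). Where it was detected its level was similar, 5.30 to 9.02 cycles after Gapdh with a median of 7.14 in the Hoxa13-only cells and 3.36 to 10.3 with a median of 7.62 in the Hoxa10/11-only cells. The ranges overlapped and the medians differed by -0.48 cycles.

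Tbx3, a T-box transcription factor gene, ran the other way. It was detected in 4 of 23 Hoxa13-only cells (17.4%, interval 4.95 to 38.8%) and in 10 of 20 Hoxa10/11-only cells (50.0%, interval 27.2 to 72.8%), a difference of -32.6 points. The cells with both (5 of 12, 41.7%) were near the Hoxa10/11-only cells, and those with neither (2 of 33, 6.06%) were lowest. Its level in the detecting cells ran from 4.11 to 8.41 cycles after Gapdh in the Hoxa13-only cells and from 2.77 to 13.1 in the Hoxa10/11-only cells. Tbx3 without Itga6 was seen in 7 of 20 Hoxa10/11-only cells (35.0%, interval 15.4 to 59.2%), in 2 of 23 Hoxa13-only cells (8.70%, interval 1.07 to 28.0%), and in 0 of 12 cells with both and 0 of 33 with neither, for which the intervals reach 26.5% and 10.6%.

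The differences in Tbx3 and Cd55 were not the same in cells with lower and higher Gapdh Ct. Among the 44 kept cells with the lowest Gapdh Ct, 1 of 13 Hoxa13-only cells and 8 of 10 Hoxa10/11-only cells carried Tbx3, a difference of -72.3 points. Among the 44 with the highest Gapdh Ct the Tbx3 counts were 3 of 10 and 2 of 10, which turned the difference to 10.0 points. With lower Gapdh Ct, Cd55 was found in 11 of 13 Hoxa13-only cells against 3 of 10 Hoxa10/11-only cells (54.6 points). With higher Gapdh Ct it was found in 7 of 10 against 7 of 10, a difference of 0 points. Itga6 was found more often in the Hoxa13-only cells in both sets, in 12 of 13 against 5 of 10 and in 8 of 10 against 5 of 10. With so few cells in each class these differences are imprecise, and many other assays shifted too. With higher Gapdh Ct, 20 of the 92 assays were at least 20 points higher in the Hoxa13-only cells and 10 lower, against 8 and 2 in all kept cells.

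The other assays higher by at least 20 points in the Hoxa13-only cells were of several kinds. The histone assay h2b was detected in 13 of 23 cells (56.5%) against 5 of 20 (25.0%), and Cd55, a complement regulator gene, in 18 of 23 (78.3%) against 10 of 20 (50.0%). The assay sma, read as smooth muscle actin, was found in 20 of 23 (87.0%) against 12 of 20 (60.0%). Itga3, another laminin-binding integrin subunit, and Lgr6, an R-spondin receptor gene of WNT signalling, were each found in 18 of 23 (78.3%) against 11 of 20 (55.0%). Epcam, the gene of the sorting antigen, was found in 21 of 23 (91.3%, interval 72.0 to 98.9%) against 14 of 20 (70.0%, interval 45.7 to 88.1%). Wnt7a, a WNT ligand of the Müllerian and uterine epithelium, was found in 15 of 23 (65.2%) against 9 of 20 (45.0%).

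The cells with both and with neither did not side with 1 class throughout. For h2b (58.3% and 48.5%), sma (91.7% and 69.7%) and Itga3 (83.3% and 63.6%) their shares lay above the Hoxa10/11-only share. For Cd55 the cells with both (50.0%) were at the Hoxa10/11-only share and those with neither (78.8%) at the Hoxa13-only share, and Wnt7a (50.0% and 66.7%) followed the same order.

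Besides Tbx3, Thy1 was lower in the Hoxa13-only cells by at least 20 points. Thy1, a surface glycoprotein gene of stromal and other mesenchymal cells, was detected in 2 of 23 (8.70%, interval 1.07 to 28.0%) against 6 of 20 (30.0%, interval 11.9 to 54.3%). Pgr, the progesterone receptor gene, followed with 13 of 23 (56.5%) against 15 of 20 (75.0%), and Prom1, which encodes the surface protein CD133, with 9 of 23 (39.1%) against 11 of 20 (55.0%). Emx2, a homeobox gene needed for the female tract, was found in 8 of 23 (34.8%) against 10 of 20 (50.0%), and Mst1r, a receptor kinase gene, in 6 of 23 (26.1%) against 8 of 20 (40.0%). These 4 differences, from -18.5 to -13.9 points, were under the limit of 20. With a Ct limit of 24, which gave 26 Hoxa13-only and 11 Hoxa10/11-only cells, 14 of the 92 assays were lower by at least 20 points. All 4 were among them, at -43.4 points for Emx2, -39.2 for Mst1r, -25.2 for Prom1 and -22.4 for Pgr. Counting only values less than 10 cycles after Gapdh gave -24.6 for Prom1, -15.7 for Mst1r and -15.2 for Emx2. For Pgr it gave -6.30, from 2 of 23 against 3 of 20 cells. The sign turned for Prom1 in the cells with lower Gapdh Ct (3.85 points), for Emx2 without the Hoxa10 cells (4.01) and for Mst1r in the cells with Epcam (7.14) and in those with Epcam and Cdh1 and without Eng, Thy1 and Vim (7.19).

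**Figure D3:**
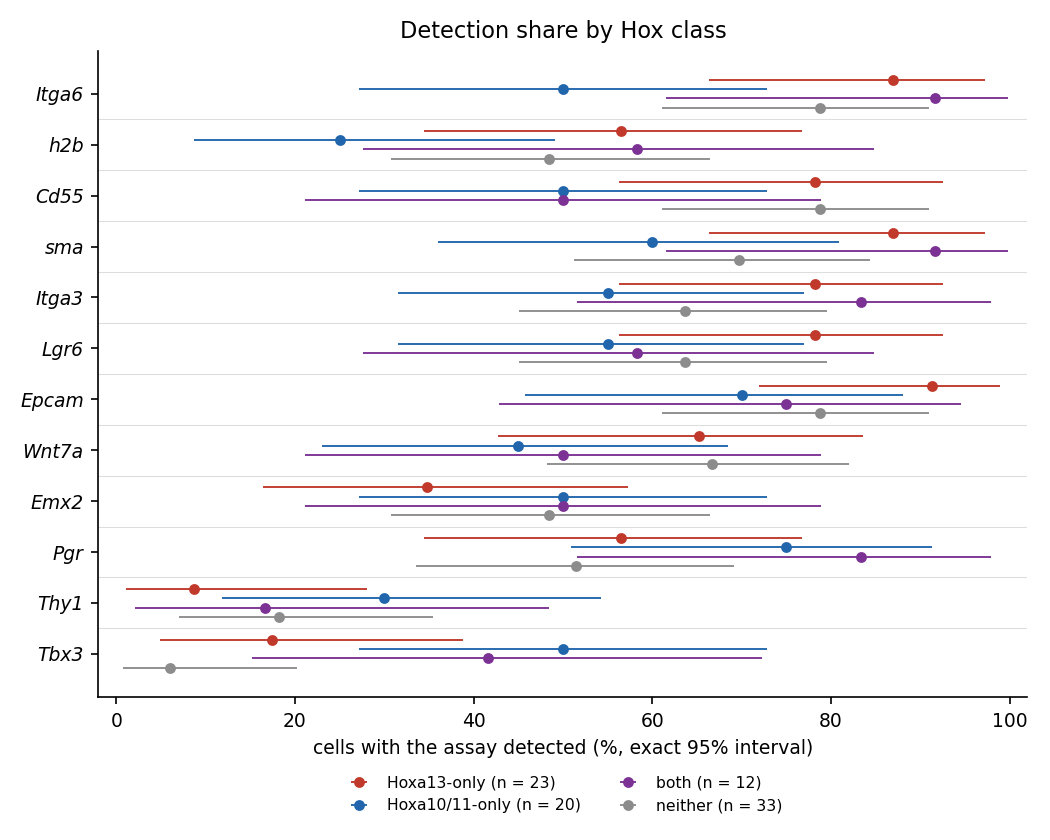
Share of cells (horizontal, %) in which each of 12 assays was detected, by Hox class, with exact 95% intervals as bars. Itga6 is lowest in the Hoxa10/11-only cells at 50.0%, Tbx3 is highest there at 50.0%, and the intervals of the 2 compared classes overlap for every assay.

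Detection at a fixed Ct favours cells with more RNA, so shares were also taken at equal reach, counting an assay as detected when it came less than 10 cycles after Gapdh. Every kept cell has a Gapdh Ct below 18, so such a value lies below 28 in each of them. At equal reach 10 of 92 assays (10.9%) were at least 20 points higher in the Hoxa13-only cells and 2 (2.17%) lower. Itga6, h2b, Cd55, sma, Epcam and Wnt7a were past 20 points by both measures, with 47.0 points for Itga6 (20 of 23 against 8 of 20 cells). Hopx (23.5 points), the WNT receptor gene Fzd4 (23.3), the surface peptidase gene Enpep (22.6) and Itgae (20.4) were past it at equal reach only. Tbx3 fell short of the limit at -17.6 points (4 of 23 against 7 of 20), and Thy1 at -15.0. Lgr6 dropped to 10.2 points and Itga3 to 19.6. The Hox genes themselves differed in reach: 29 of the 35 cells with Hoxa13 passed it, but 12 of the 28 with Hoxa11 and 7 of the 11 with Hoxa10. With equal reach applied to the Hox classes as well, 22 Hoxa13-only and 8 Hoxa10/11-only cells remained, and Itga6 was found in 18 of 22 against 1 of 8 (69.3 points) and Tbx3 in 4 of 22 against 6 of 8 (-56.8 points). Markers of cell type moved with them in that set: Epcam was found in 17 of 22 against 1 of 8, Cdh1 in 20 of 22 against 4 of 8 and Eng in 1 of 22 against 3 of 8, and their part in the differences was not tested.

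Cells without Epcam transcript were found in every class, and those of the 2 compared classes carried Tbx3 without Itga6. Epcam was not detected in 2 of 23 Hoxa13-only cells (8.70%, interval 1.07 to 28.0%), 6 of 20 Hoxa10/11-only cells (30.0%, interval 11.9 to 54.3%), 3 of 12 with both and 7 of 33 with neither. All 6 of those Hoxa10/11-only cells carried Tbx3, 4 carried Eng (endoglin, an endothelial and stromal co-receptor) and 2 Thy1, whereas Itga6, Cd55 and Wnt7a were found in 0 of 6. Cdh1, the epithelial E-cadherin gene, was found in 4 of the 6, and their median of 53 detected assays was close to the 54 of the 14 Hoxa10/11-only cells with Epcam. The 2 Hoxa13-only cells without Epcam likewise carried Tbx3 and Eng and lacked Itga6, Cd55 and Wnt7a. The 3 cells with both that lacked Epcam did not share this pattern: 1 carried Tbx3, 1 Eng, 2 Itga6 and 3 Cdh1. Nor did the 7 cells with neither that lacked Epcam: 0 carried Tbx3, 2 Eng, 3 Itga6 and 7 Cdh1, at a median of 38 detected assays.

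Several of the differences were smaller among the cells that carried Epcam. With 21 Hoxa13-only and 14 Hoxa10/11-only cells, Itga6 was found in 20 of 21 against 10 of 14 (23.8 points), Tbx3 in 2 of 21 against 4 of 14 (-19.0 points) and Cd55 in 18 of 21 against 10 of 14 (14.3 points). Wnt7a differed by 7.14 points there, h2b by 28.6 and sma by 33.3. In a narrower set, chosen after the data were seen, cells had to carry Epcam and Cdh1 and lack Eng, Thy1 and Vim. It held 17 and 9 cells, where Itga6 differed by 16.3 points (16 of 17 against 7 of 9), h2b by 19.6, Lgr6 by 32.0, Tbx3 by -5.23 and Cd55, sma and Itga3 by -0.65 each. With 9 cells in a class these differences are imprecise.

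**Figure D4:**
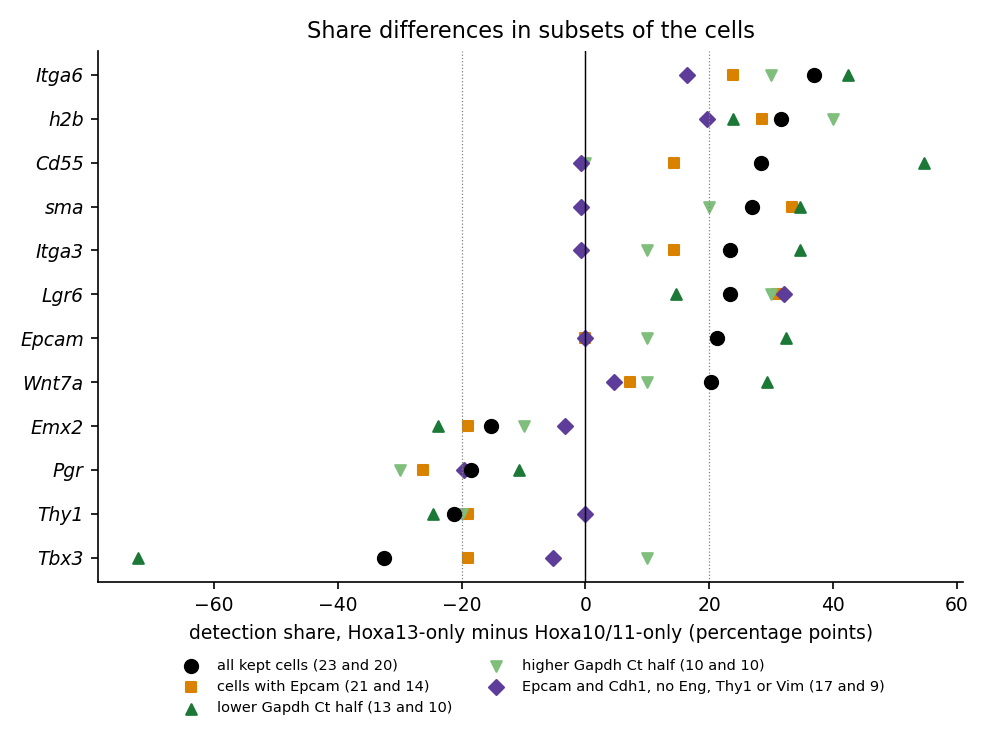
Difference in detection share between the Hoxa13-only and Hoxa10/11-only cells (horizontal, percentage points) for 12 assays in all kept cells, in the cells with Epcam, in the cells with lower and higher Gapdh Ct, and in the cells with Epcam and Cdh1 but without Eng, Thy1 and Vim. Dotted lines mark 20 points. Tbx3 runs from -72.3 to 10.0 points over these sets, whereas Itga6 stays between 16.3 and 42.3 points.

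Markers assigned to other cell types were about equally numerous in both compared classes when whole lists were counted. The median cell of either class carried 3 of 7 stromal and muscle markers, 2 of 3 endothelial and 2 of 3 immune-related ones, and 6 of 6 epithelial ones. Assays found in most of the 88 kept cells filled much of these counts (Pecam1 in 88, Nt5e in 83, Mme in 72 and sma in 66). Such counts can therefore show little difference between classes. As summed cycles before the limit (28 minus Ct, added over a list), the stromal and muscle markers ran from 12.1 to 42.8 in the Hoxa13-only cells and from 13.2 to 48.7 in the Hoxa10/11-only cells. Endothelial markers ran from 11.5 to 24.6 and from 5.98 to 29.8, and immune-related ones from 0 to 30.5 and from 0 to 34.3. The medians, Hoxa13-only first, were 29.5 and 28.9 for stromal and muscle, 16.7 and 17.9 for endothelial and 14.2 and 17.7 for immune-related markers. No measured marker of these lists was at 0 in either class: Vim, the mesenchymal intermediate filament gene, was found in 3 and 1 cells, Eng in 3 and 5, Pecam1 in 23 and 20 and Ptprc, the leukocyte phosphatase gene, in 16 and 13. Of the 7 stromal and muscle markers sma was past 20 points in the Hoxa13-only cells and Tbx3 and Thy1 in the Hoxa10/11-only cells, and none of the 3 endothelial or 3 immune-related ones was past it in either, beside 8.7% and 2.17% of all 92 assays. At least 1 of Eng, Thy1 and Vim was found in 6 of 23 Hoxa13-only cells (26.1%) and 8 of 20 Hoxa10/11-only cells (40.0%). Cells without Epcam, and cells with Eng or Thy1, moved with the classes as given here, and the part of other cell types in the differences was not tested.

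Of the 6 measured genes of tract patterning besides the Hox genes, Wnt7a was at least 20 points higher in the Hoxa13-only cells and Tbx3 lower. Over all 92 assays 8.7% were higher and 2.17% lower by as much. The median difference was 0.43 points over the 6 genes, beside 0.98 over all assays. Pax2, a paired-box gene of the Müllerian duct, was detected in 13 of 23 (56.5%) against 10 of 20 (50.0%). Wnt5a, a WNT ligand known from the stroma of the tract, was found in 13 of 23 (56.5%) against 8 of 20 (40.0%), and Lhx1, a LIM homeobox gene of the forming duct, in 1 and 2 cells. At equal reach Pax2 stood at 3 of 23 against 6 of 20, so that its order turned with the measure.

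Of the 3 basal, 4 gland and 2 steroid receptor genes Itga6 alone was past 20 points, beside 8.7% of all 92 assays higher and 2.17% lower. Pgr stood at -18.5, Prom1 at -15.9 and Sox9 at 13.5 points. Trp63, which encodes the p63 protein of basal cells, was found in 2 cells of each class, and Krt15, a keratin of basal layers, in 14 of 23 (60.9%) against 13 of 20 (65.0%). None of the 4 gland genes reached 20 points, although Prom1 stood at -24.6 points at equal reach: Foxa2, whose forkhead protein is needed for uterine glands, was found in 2 and 3 cells, Aldh1a1, a retinoic acid synthesis gene, in 2 and 4, and Sox9, a transcription factor gene of gland progenitors, in 10 and 6. Esr1, the estrogen receptor alpha gene, was found in 20 of 23 (87.0%) against 16 of 20 (80.0%). Mki67, a gene of cycling cells, was at 8 of 23 (34.8%) and 7 of 20 (35.0%), and every Mki67 value in both classes came more than 10 cycles after Gapdh.

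The keratins and other epithelial genes were shared. Krt18, a keratin of simple epithelium, was detected in every cell of both classes, as were Bmi1, a Polycomb gene, and Pecam1, an endothelial adhesion gene. Cdh1 was found in 21 of 23 (91.3%) against 17 of 20 (85.0%) and Cd24a, a surface glycoprotein gene, in 23 of 23 against 18 of 20. Over 6 epithelial genes the median difference was 5.65 points, with Epcam alone past 20, beside 8.7% of all 92 assays higher by as much.

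The counts by list stand beside 8.7% of all 92 assays higher and 2.17% lower by 20 points, and a median of 0.98. Among 8 integrin subunits Itga6 and Itga3 were past 20 points (2 of 8), with a median of 6.41 over the list. Of 11 WNT genes Lgr6 and Wnt7a were past 20 (2 of 11), with a median of 5.65. Of 12 adult stem cell genes Lgr6 alone was past 20, about the share of the whole panel, with a median of 0.22. Lgr6 stood at 10.2 points at equal reach. None of 5 growth factor receptors, 8 pluripotency genes, 4 surface peptidases and 3 cycling and chromatin genes reached 20 points in either direction, with medians from -4.35 to 2.83. At equal reach the surface peptidase gene Enpep did, at 22.6 points (19 of 23 against 12 of 20). Pou5f1, which encodes OCT4, was found in 3 of 23 cells against 0 of 20, for which the exact interval reaches 16.8%. Klf4 was found in 23 of 23 against 17 of 20, and Sall4, another pluripotency gene, in 16 of 23 (69.6%) against 10 of 20 (50.0%), a difference that was -1.52 points at equal reach. Hopx, a homeobox-like gene of several adult stem cells, was found in 10 of 23 (43.5%) against 5 of 20 (25.0%), and differed by 23.5 points at equal reach.

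Levels in the detecting cells were compared as Ct minus Gapdh Ct for the 73 assays found in at least 5 cells of each class. The Hoxa13-only cells were later by a median of 0.37 cycles over these assays. Of the 73, 11 (15.1%) had a median at least 1 cycle later in the Hoxa13-only cells and 4 (5.48%) at least 1 cycle earlier. The ranges of the classes overlapped for all 73. Overlap of ranges from the lowest to the highest cell cannot decide whether levels differ, and the differences were not tested. With actin as the reference the median Ct difference over assays was 0.51 cycles, and 21 assays were later and 3 earlier.

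Pax2 and Emx2 had later medians in the Hoxa13-only cells. Pax2 came 7.93 to 13.0 cycles after Gapdh with a median of 11.4 in 13 Hoxa13-only cells, and 7.32 to 13.2 with a median of 8.86 in 10 Hoxa10/11-only cells, a difference of 2.51 cycles. That of Pax2 was 0.19 cycles with a Ct limit of 26 and 0.065 with undetected cells set at 28, and reached 3.76 with actin as reference. Emx2 came 4.69 to 9.61 cycles after Gapdh with a median of 8.26 in 8 cells, and 3.12 to 8.32 with a median of 6.59 in 10, a difference of 1.68 cycles that ranged from 1.18 to 4.18 over the 16 other settings that gave a value. The R-spondin receptor gene Lgr5 differed by 2.40 cycles in 5 cells of each class, the WNT receptor gene Fzd10 by 2.22, Lrig1, a growth factor receptor inhibitor gene, by 1.75, and the insulin receptor gene Insr by 1.59. The difference was 0.40 for Lgr5 with undetected cells set at 28, 0.44 for Fzd10 with a Ct limit of 24 and 0.73 for Insr with a limit of 26, and Lrig1 was lowest at 1.04 with that limit. Pgr was later by 1.33 cycles, with medians of 12.7 and 11.3, but differed by -0.37 in the cells with lower Gapdh Ct.

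Fewer assays were earlier in the Hoxa13-only cells. Krt18 came -0.50 to 9.53 cycles after Gapdh with a median of 2.52 in the Hoxa13-only cells, and -2.62 to 10.1 with a median of 4.17 in the Hoxa10/11-only cells, a difference of -1.66 cycles. It turned to 0.23 cycles in the cells with Epcam and to 1.55 in those with higher Gapdh Ct. Itgae, an integrin subunit gene, differed by -1.97 cycles and Cd44, a hyaluronan receptor gene, by -1.45, with medians of 4.99 and 6.44. Kit, the stem cell factor receptor gene, differed by -1.16 cycles. The sign turned for Itgae with actin as reference (0.56), and for Cd44 (0.72) and Kit (0.33) in the cells with higher Gapdh Ct.

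**Figure D5:**
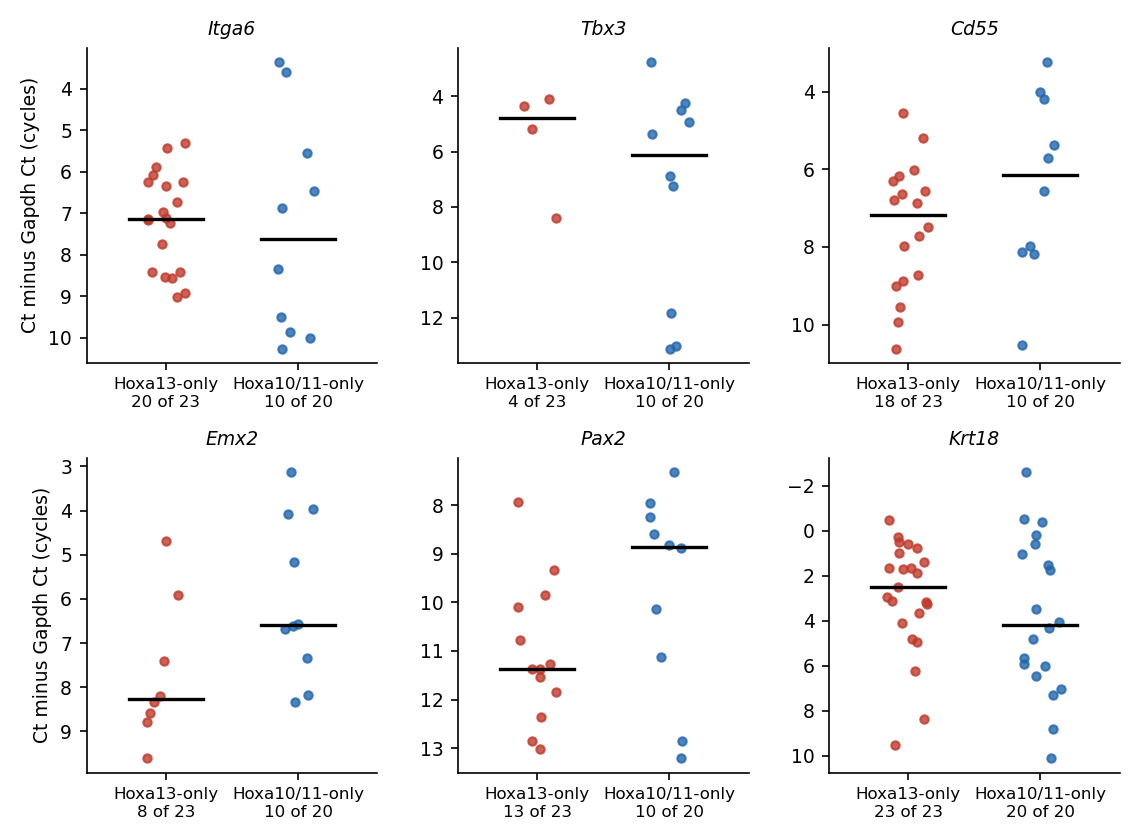
Ct minus Gapdh Ct (vertical, cycles, earlier values upward) of 6 genes in the cells that detected them, for the Hoxa13-only and Hoxa10/11-only cells, with the median as a bar and the number of detecting cells under each column. The ranges overlap for every gene, the Pax2 medians are 11.4 and 8.86, and Itga6 differs in the number of points more than in their height.

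Within the Hoxa10/11-only class some assays were found at different shares in the cells with Hoxa10 and those with Hoxa11 alone. This split was made after the values were seen, and with 7 and 13 cells the shares are imprecise. Of the 7 with Hoxa10, 6 carried Tbx3, 6 Emx2, 7 Pgr and 3 Itga6, at a median of 58 detected assays and a Gapdh Ct of 12.4. Of the 13 with Hoxa11 alone, 4 carried Tbx3, 4 Emx2, 8 Pgr and 7 Itga6, at a median of 53 assays and a Gapdh Ct of 13.5. Epcam was found in 4 of the 7 and 10 of the 13, Cd55 in 2 and 8 and Wnt7a in 2 and 7. Pgr came less than 10 cycles after Gapdh in 3 of the 20 cells of the class. The part of Epcam and of RNA amount in these shares was not tested. Over all 11 kept cells with Hoxa10, Emx2 was found in 9 (81.8%, interval 48.2 to 97.7%) and Pgr in 11 (interval 71.5 to 100%). In the 21 with Hoxa11 and no Hoxa10 they were found in 7 (interval 14.6 to 57.0%) and 14 (interval 43.0 to 85.4%). The intervals overlapped for both genes. Tbx3 was found in 7 and Itga6 in 7 of those 11 cells, against 8 and 14 of those 21. The 4 cells with Hoxa10 and Hoxa13 carried Itga6 in 4 cases and Tbx3 in 1. Of the 8 cells with Hoxa13 and Hoxa11 but no Hoxa10, 7 carried Itga6 and 4 Tbx3. The Tbx3 intervals, 0.63 to 80.6% and 15.7 to 84.3%, are too wide to say whether Tbx3 went with Hoxa10 there. When the cells with Hoxa10 were left out, the difference between the classes was 33.1 points for Itga6, -13.4 for Tbx3 and 16.7 for Cd55.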

How the data were processed

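The authors deposited raw Ct values for 96 assays in 96 cells, not normalized per the file headers, with 40 where no Ct was recorded. Cells were sorted, lysed, preamplified and run with EvaGreen on a Fluidigm Biomark chip per the labels' protocols. Baseline, threshold, quality filters and primers are not stated there, and the deposited fold-change table was not used.

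Cells were numbered by their titles, and assays were named through a RefSeq table (GRCm38.p6, for names only): 45 by symbol, 30 by synonym, 3 by a synonym of several genes (er, pr and p63), 14 by convention, and 4 (actin, h2b, cd327, sma) kept as in the file. Differences of 20 percentage points or 1 cycle were the size limits. Named genes were the reference and Hox assays, the 8 largest share differences and 6 largest Ct differences each way, all members of 4 lists (tract patterning, basal epithelium, gland, steroid receptors) and up to 3 of each other list. The values of 1 assay the rule names are not reported here. Members and lists were chosen with earlier results of these data known. No doublets were removed. Alternatives changed the Ct limit, Gapdh limit, reach, reference, cell sets and summary. The comparison step was tested on simulated data. Work used Python 3.11.15, numpy 2.4.6, pandas 2.3.3, scipy 1.17.1 and matplotlib 3.10.9.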

Additional observations from a re-analysis of the deposited data

How the results depend on the processing

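No paired analysis was possible because the labels put all cells into 1 group. The compared classes held 8 to 26 cells over the settings, and the cause of the changes below was not tested. Under the alternatives 146 main values moved by less than their limit (the counting interval, 1 SD, or 1.5 times for counts) and 33 by more. The SD for median differences was taken over assays, at 12.0 points for shares and 0.85 cycles for Ct. Such wide limits are seldom passed, so the 146 does not measure stability.

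With a Ct limit of 24 the Hoxa10/11-only share of kept cells was 12.5% in place of 22.7%, both 6.82% in place of 13.6% and neither 51.1% in place of 37.5%. With equal reach for the Hox classes too, Hoxa10/11-only was 9.09% and neither 58.0%.

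The 8 assays at least 20 points higher in Hoxa13-only cells became 16 with equal reach for the Hox classes and 20 with higher Gapdh Ct. The 2 lower became 9 with a Ct limit of 26, 14 with 24, 9 without cells with a Hox Ct recorded from 26 up, 11 with equal reach for the Hox classes, 12 with lower and 10 with higher Gapdh Ct, 1 without Hoxa10 cells and 0 in the cells with Epcam and Cdh1 and without Eng, Thy1 and Vim.

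The 11 assays at least 1 cycle later became 4 with a Ct limit of 24, 7 with equal reach, 5 with it for the Hox classes too, 5 with lower Gapdh Ct, 21 with actin, 17 with no reference gene, 18 with means and 18 in the cells with Epcam and Cdh1 and without Eng, Thy1 and Vim. The 4 earlier became 9 with a limit of 26, 12 with 24, 11 without cells with a Hox Ct from 26 up, 7 with a Gapdh limit of 16, 2 with equal reach, 2 with Epcam, 13 with lower and 1 with higher Gapdh Ct, 16 with undetected cells at 28 and 1 in the cells with Epcam and Cdh1 and without Eng, Thy1 and Vim.

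Among differences past the size limit, signs turned for Tbx3 share (10.0 points, higher Gapdh Ct) and for Cd55, sma and Itga3 share (-0.65 points each in the last set). For Ct differences they turned for Cd55 with a limit of 26 (-0.85) and undetected cells at 28 (-3.72), Wnt5a with undetected cells at 28 (-2.09), Sall4 with a limit of 24 (-0.05, exactly -0.046) and equal reach (-0.12), and Pgr with lower Gapdh Ct (-0.37). They turned for Krt18 with Epcam (0.23), with higher Gapdh Ct (1.55) and in the last set (1.12), for Cd44 (0.72) and Kit (0.33) with higher Gapdh Ct, for Kit in the last set (1.34) and for Itgae with actin (0.56). Itga6 kept its sign in 14 of 14 settings and 20 points in 13.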
